A study of Mus musculus with 42 samples.

Results

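The 2 cultures of a mouse embryonic stem cell differentiation course were compared over 90, 96 and 102 h, which took 6 of the 42 libraries, 3 from replicate A and 3 from replicate B, paired by their time labels. All 14296 genes of the deposited values entered the comparison, and 823 of them met the rule for a difference between the cultures at 96 h only. That rule asked for a B minus A difference at 96 h of at least 1 on the log2 scale, under 1 in that direction at 90 h and at 102 h, and a change of the difference at 96 h past an adjusted p of 0.05. It also left out genes whose 90 or 102 h difference passed that threshold in the same direction against the mean of other pairs. The 96 h time point was chosen because earlier results of these data had shown a difference between the duplicates there.

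Both replicates were W9.5 embryonic stem cells, a line labelled with the 129X1/SvJ strain background. After LIF, the factor that holds them in the stem cell state, was withdrawn, the cells formed embryoid bodies, aggregates in which several lineages arise side by side, and each culture was harvested every 6 h up to 120 h. Neither a mutation nor a treatment separates the replicates, and both groups are 1 cell line, so the comparison is of biological duplicates. Poly-A RNA was sequenced with a stranded kit, and each value is a log2 CPM, the log2 of the reads of a gene scaled to library size (CPM), with 1 library for each culture and time. The stem cell gene Pou5f1 was abundant in all 6 libraries, at 8.55 to 9.68.

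In an embryoid body, pluripotent cells first leave the naive state and then pass through an epiblast-like state. Some of them activate primitive streak genes, the T-box and homeobox regulators with which mesoderm and endoderm begin, under Wnt, Nodal and BMP signals. Others activate neuroectoderm genes. In a bulk library, fewer cells of a type and less RNA per cell cannot be told apart.

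Several streak and Wnt target genes are known to carry sites for TCF/LEF factors, which read the Wnt signal, so the promoters of 4 genes of these groups are shown. They come from RefSeq on GRCm38.p6, from 250 bases before to 50 after the start of the gene, and capitals mark the core CTTTGA or its reverse complement. The T promoter lies at chr17:8434173-8434472 on the plus strand, that of Eomes at chr9:118477939-118478238 on the plus strand, that of Dkk1 at chr19:30549447-30549746 on the minus strand and that of Sp5 at chr2:70474673-70474972 on the plus strand.
T: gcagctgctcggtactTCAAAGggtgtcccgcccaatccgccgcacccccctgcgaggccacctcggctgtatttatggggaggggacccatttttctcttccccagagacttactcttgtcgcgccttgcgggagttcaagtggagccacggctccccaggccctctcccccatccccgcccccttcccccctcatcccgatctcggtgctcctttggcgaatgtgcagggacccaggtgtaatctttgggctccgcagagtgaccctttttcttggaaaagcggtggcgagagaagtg
Eomes: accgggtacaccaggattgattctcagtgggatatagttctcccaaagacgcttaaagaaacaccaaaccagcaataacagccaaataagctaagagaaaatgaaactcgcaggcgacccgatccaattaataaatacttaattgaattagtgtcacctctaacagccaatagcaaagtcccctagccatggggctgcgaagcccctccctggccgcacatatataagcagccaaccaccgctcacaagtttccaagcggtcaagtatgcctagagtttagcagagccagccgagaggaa
Dkk1: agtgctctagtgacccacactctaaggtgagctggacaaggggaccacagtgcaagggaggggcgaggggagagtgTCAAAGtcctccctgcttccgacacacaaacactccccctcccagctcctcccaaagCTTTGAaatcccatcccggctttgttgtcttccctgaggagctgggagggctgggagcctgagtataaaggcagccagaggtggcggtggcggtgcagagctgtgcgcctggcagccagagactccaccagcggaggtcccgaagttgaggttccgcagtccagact
Sp5: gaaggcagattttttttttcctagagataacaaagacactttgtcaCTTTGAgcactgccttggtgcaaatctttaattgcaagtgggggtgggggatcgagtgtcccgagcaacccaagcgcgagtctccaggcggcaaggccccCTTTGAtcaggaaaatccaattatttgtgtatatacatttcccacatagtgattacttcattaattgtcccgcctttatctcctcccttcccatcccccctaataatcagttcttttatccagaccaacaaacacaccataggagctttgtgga
The core was found once in the T window, not in the letters shown for Eomes, and 2 times each in Dkk1 and Sp5. T, Dkk1 and Sp5 were printed for their matches, and the windows of Lef1, Wnt3, Lhx1, Evx1, Bmp4 and Msx2, searched alike, held none. Across the genes that were higher in replicate B at 96 h only, 40 of 287 with a promoter entry held it (13.9%), against 28 of 303 of the lower genes (9.24%) and 1233 of all 10686 (11.5%). The T-box motif TCACACCT on either strand, was in 4 of the 287 (1.39%) and in 0.842% of all. These shares lay close to those of all promoters, and a match is a string of letters, not a shown site.

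The pair at 96 h was the farthest apart of the 21 pairs. There, 775 genes were at least 2-fold higher in replicate B (5.42% of all) and 1161 at least 2-fold lower (8.12%), 1936 in all. The same count was 597 for the 90 h pair and 522 for the 102 h pair, and the 18 pairs outside the window ranged from 256 to 787. Over all genes, the log2 differences had an SD of 0.739 at 96 h, against 0.491 for the 90 h and 0.432 for the 102 h pair. The median gene differed by -0.01 at 96 h.

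**Figure D1:**
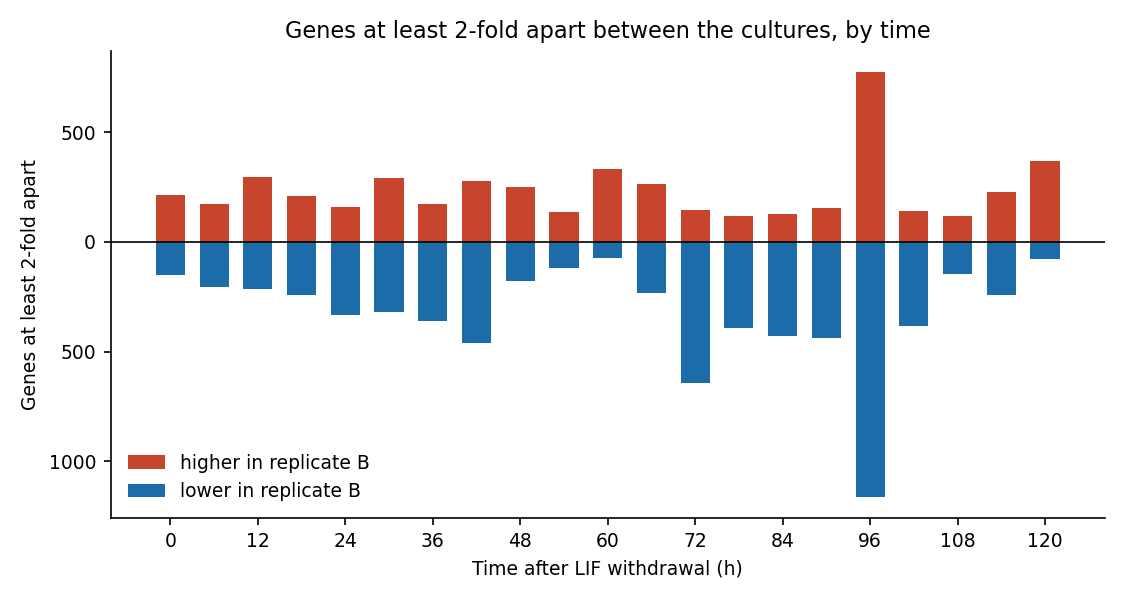
Bars give the number of genes (y axis) at least 2-fold higher (upward) or lower (downward) in replicate B at each time after LIF withdrawal in hours (x axis), with 1 library per culture and time. The bars at 96 h, 775 upward and 1161 downward, are the longest in both directions.

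Replicate B was the culture that left its own course. Its 96 h library differed at least 2-fold from the mean of its own 90 and 102 h libraries in 1513 genes, whereas that of replicate A did so in 216. Over the 2000 most variable genes, the nearest library to A at 96 h was A at 90 h, at a Euclidean distance of 29.2. For B at 96 h the nearest was B at 90 h, at 54.0, the largest such distance of the 42 libraries and above the next, 42.0 for B at 30 h. With 1 library per culture and time, a difference between the cultures at 96 h and a difference between their libraries cannot be told apart.

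Other measures of that library moved with the result. Mitochondrial genes took 7.91% of its counted reads, above the 3.97% to 6.86% of the other 41 libraries and against 4.82% in A at 96 h. The 17 mitochondrial genes had a median B minus A of 0.37, 1.01 and 0.30 at 90, 96 and 102 h, and 7 of them were at their highest of the course in B at 96 h. Ribosomal protein genes took 7.60% in B and 9.28% in A at 96 h, both inside the range of the others, 5.26% to 9.89%. Depth was 30690825 counted reads in A and 25524270 in B. The part of these in the gene differences was not tested, and removing a GC and length trend from every pair, a choice made after the data were seen, left 327 of 381 higher and 379 of 442 lower genes in their sets.

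Averaged over the window, no gene passed the test. The paired limma fit over the 6 libraries called 0 of 14296 genes (0%) at an adjusted p of 0.05, and the smallest adjusted p was 0.0624. At an unadjusted p under 0.05 stood 1755 genes (12.3%), 782 higher and 973 lower in B. The 90 and 102 h pairs lay inside the range of the pairs outside the window and the 96 h pair did not, and the fit has 2 residual degrees of freedom per gene before limma adds its prior. Without the 96 h pair the same fit called 28 genes higher and 263 lower, without the 90 h pair 9 and 33, and without the 102 h pair 251 and 236.

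The genes of the window without 96 h were of another kind. Among the 263 lower genes, 77 were annotated as antisense (29.3%), a class that makes up 225 of all genes (1.57%). Antisense genes had a median of 0.95, 1.09 and 0.79 log2 CPM in replicate A at 90, 96 and 102 h and of -0.01, 0.38 and 0.30 in replicate B. Their median B minus A was -1.16, -0.65 and -0.60 at the 3 times, lower in B at each and smallest in size at 102 h. It was already -1.35 at 72 h, while at 60 h the median stood 0.87 higher in B and at 120 h 1.11 higher. Whether counting used the strand is not given in the sources used here, so reads of these genes and of their partners may not be told apart. Protein-coding genes had a median difference of 0.04, 0.0048 and 0.02 at the 3 times.

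**Figure D2:**
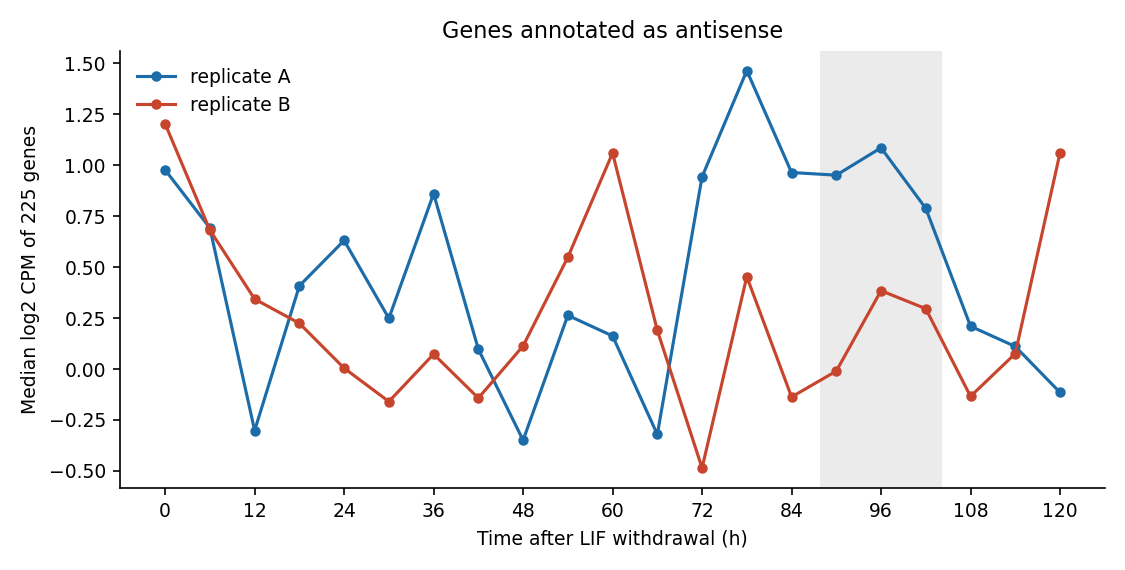
The median log2 CPM of the 225 antisense genes (y axis) is drawn over the time after LIF withdrawal in hours (x axis) for both cultures, with the 90 to 102 h window shaded. Replicate B lies below replicate A from 72 to 108 h, at -0.01 against 0.95 at 90 h. It also lies below from 18 to 42 h and slightly at 6 and 114 h. It lies above at 0 and 12 h, from 48 to 66 h and at 120 h.

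At 96 h the picture was different. A limma fit to the 21 paired differences, with a term each for 90, 96 and 102 h, tested whether the difference at 96 h departed from the mean of those at 90 and 102 h, with the spread taken from the 18 other pairs. This 96 h contrast was past the threshold for 1246 genes in the direction of B (8.72% of all) and for 1157 in that of A (8.09%). Set against the 18 other pairs, the 96 h term was called for 2268 genes higher and 1787 lower in B. The 90 h term was called for 0 genes by limma, with 1493 at an unadjusted p under 0.05, and the 102 h term for 1, with 849 unadjusted.

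Of the genes with a contrast, 381 differed at 96 h only with B higher (2.67% of all) and 442 with B lower (3.09%). Protein-coding genes made up 360 and 413 of them. In the higher set the median difference was 0.34, 1.41 and -0.10 at 90, 96 and 102 h, and in the lower set -0.10, -1.34 and 0.20. The values at 96 h chose these genes and are a description. The rule did not name the culture that moved, but the counts that follow use the same values that chose the genes. Of the 381 higher genes, 8 departed at least 2-fold from their own neighbours in A, and 257 did so in B. For the 442 lower genes the counts were 15 in A and 306 in B. Over all genes they were 216 in A and 1513 in B, so the excess in B was not particular to these sets.

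The rule used the values at 90, 96 and 102 h. Those of other times entered only through the spread between the cultures and, in the 90 and 102 h terms, their mean difference. Genes of the higher set had a median of 4.69 log2 CPM in B at 96 h, against 3.32 to 3.65 in the 4 libraries of 84 and 108 h and 4.26 to 4.45 in the 8 libraries of 6 to 24 h. The lower set had 2.33 in B at 96 h, against 3.24 to 3.28 and 1.76 to 2.20. In 294 of the 381 higher genes (77.2%) the mean over 6 to 24 h was above that over 84 and 108 h, and in 66 of the 442 lower genes (14.9%), where all genes had 49.1%. For 116 of the higher genes B at 96 h was nevertheless the highest of all 42 libraries, and for 68 of the lower genes the lowest. Transcripts of the higher set had a median length of 2491 bases and those of the lower set 3716, against 3307 over all genes, and their median GC was 53.3% and 50.8%, against 50% over all.

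**Figure D3:**
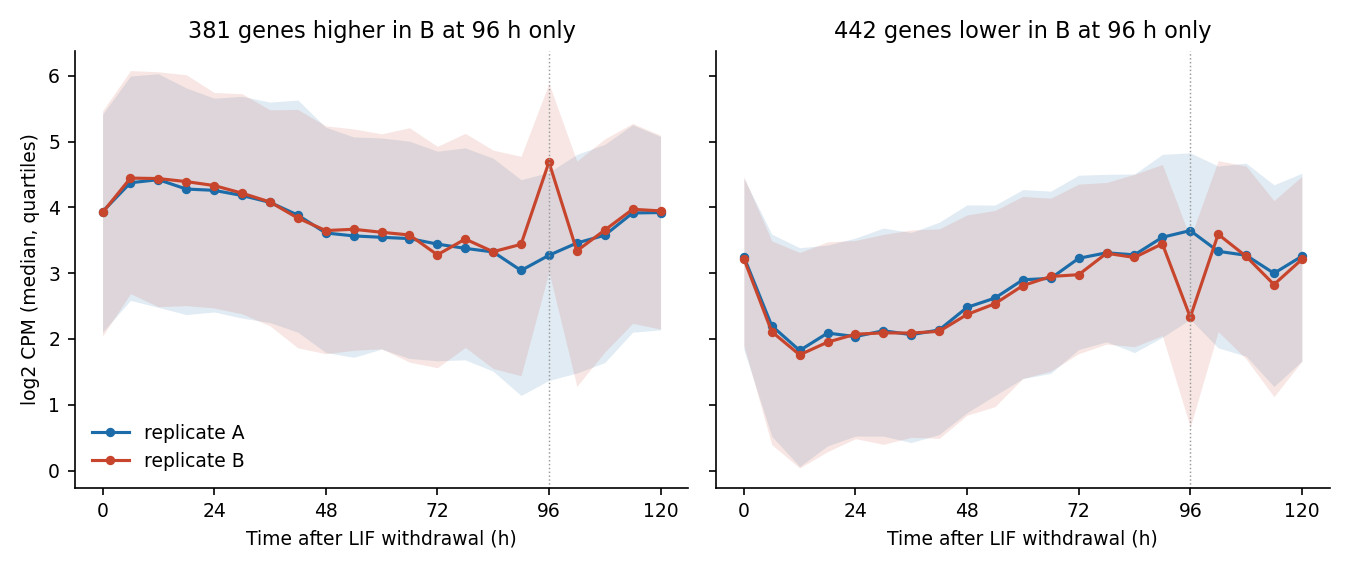
Lines give the median log2 CPM (y axis) of the 381 genes higher and the 442 genes lower in B at 96 h only, with bands from the lower to the upper quartile, over the time after LIF withdrawal in hours (x axis). Replicate B departs at 96 h alone, to 4.69 and 2.33, while replicate A stays at 3.27 and 3.65. Both values of B lie above the medians of the 6 to 24 h libraries, 4.26 to 4.45 and 1.76 to 2.20.

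Primitive streak genes were higher in B at 96 h, with the largest median difference of the 28 lists. Its members T, Mixl1, Eomes and Evx1 were known from earlier results of these data to differ at 96 h. The rank of the list and its counts therefore partly restate that choice and are a description. The list had a median B minus A of 0.41 at 90 h, 1.76 at 96 h and -0.04 at 102 h, where all genes had 0.04, -0.01 and 0.01. At 96 h 12 of its 16 measured genes were at least 2-fold higher in B, 7 passed the contrast and 6 differed at 96 h only. Over all genes, 8.72% passed the contrast in the direction of B and 8.09% in that of A. This and the later list counts are read against these shares. In 12 of the 16, B at 96 h was the highest library of the whole course, against 5.50% of all genes. Summed over the list, the level was 332 CPM in A and 987 CPM in B at 96 h, and no other library exceeded 536 CPM.

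T, also called Brachyury, the T-box factor that defines the streak and later the notochord, lies at chr17:8434423-8442496. Replicate A held it at 4.99, 5.70 and 5.96 log2 CPM at 90, 96 and 102 h, and replicate B at 5.81, 7.83 and 5.58. The 96 h value of B was the highest of the course, where the next was 5.96. The contrast was 1.91 ± 0.53 (SE, limma adjusted p = 0.0155), but against the 90 h pair alone it was 1.31 with an adjusted p of 0.239. At 90 h B was above A by 0.82, where limma did not call the 90 h term. For every gene, a contrast against 1 pair has a wider error than one against the mean of 2. A call lost against the 90 h pair alone is therefore not by itself a difference at 90 h.

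Mixl1, a homeobox gene of the streak and the mesendoderm that comes from it (chr1:180693043-180697034), had 2.12, 2.59 and 2.69 in A and 2.54, 5.66 and 2.91 in B. Its difference at 96 h was 3.07 on the log2 scale and its contrast 2.76 ± 0.61 (SE, limma adjusted p = 0.00332). Eomes, the T-box factor that opens endoderm and cardiac mesoderm fates (chr9:118478212-118486132), had 4.96, 5.24 and 5.70 in A and 5.72, 7.47 and 5.65 in B, with a contrast of 1.86 ± 0.23 (SE, limma adjusted p = 1.26e-05). Both genes were close between the cultures at 102 h, and B at 96 h was again the highest of 42 libraries.

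Evx1, a homeobox gene of the posterior streak, had 1.70, 2.35 and 2.64 in A and 2.14, 4.27 and 2.59 in B. Its difference at 96 h, 1.92, did not pass the contrast (limma adjusted p = 0.4), as its B minus A had an SD of 1.20 over the other pairs, among them early times with few reads. With voom weights, which give less say to values from few reads, the adjusted p was 0.00264. The same weighting raised the streak genes past the contrast from 7 to 12 of 16, and against the 90 h pair alone the count was 3, also the number at 96 h only. Voom weights raised the calls over all genes too, to 10.1% in the direction of B and 11.3% in that of A.

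Among the signals of the streak, Wnt3, the ligand that starts it, had 4.03, 4.20 and 4.50 in A and 4.23, 6.13 and 4.13 in B (contrast 2.01 ± 0.58, limma adjusted p = 0.0188). Fst, which encodes the activin antagonist follistatin, had 3.95, 4.33 and 4.31 in A and 4.61, 6.22 and 4.14 in B (contrast 1.66 ± 0.33, limma adjusted p = 0.00134). Fgf17 was past the contrast with a difference under 2-fold, 0.97. Lhx1, a regulator of the anterior streak, had 0.76 in A and 3.26 in B at 96 h without passing (limma adjusted p = 0.478), and Chrd, the BMP antagonist chordin, was the single gene of the list that was lower in B, by -0.64.

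**Figure D4:**
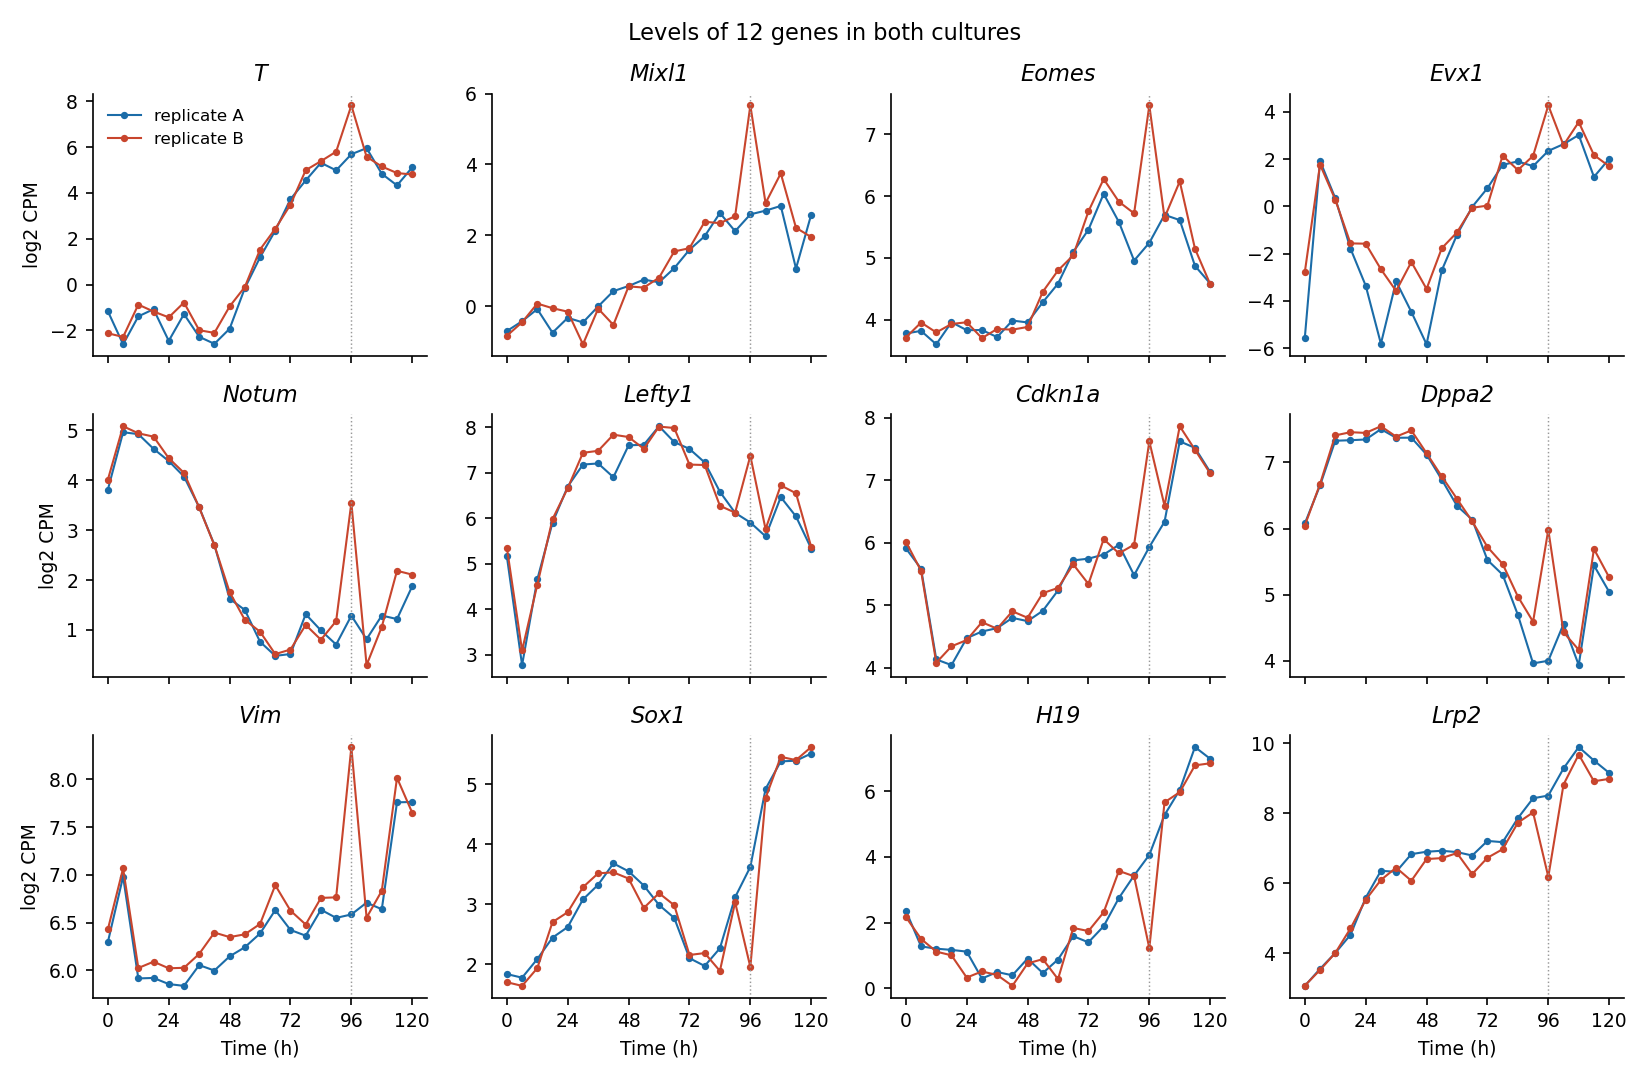
Each panel shows the log2 CPM of a gene (y axis) over the time in hours (x axis), with 1 point per library and replicates A and B in blue and red. At 96 h, marked by the dotted line, B stands above A for T (7.83 against 5.70), Mixl1, Eomes, Evx1, Notum, Lefty1, Cdkn1a, Dppa2 and Vim. It stands below A for Sox1, H19 and Lrp2 (6.18 against 8.50). The cultures lie closer at 90 and 102 h than at 96 h. For genes at 96 h only, the rule that chose them largely fixed this.

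Wnt target genes stood higher in B at 96 h, with a median difference of 0.29, 1.02 and -0.14 at the 3 times. Of 14 measured, 5 passed the contrast, all in the direction of B, and 4 differed at 96 h only. Notum, a secreted enzyme that inactivates Wnt ligands, had 0.71, 1.29 and 0.82 in A and 1.18, 3.55 and 0.30 in B (contrast 2.29 ± 0.33, limma adjusted p = 6.78e-05). Lef1, one of the TCF/LEF factors, had 3.54, 3.58 and 3.66 in A and 3.94, 5.23 and 3.58 in B, with an adjusted p of 0.000777 by limma. Axin2, the feedback inhibitor that is used as a general readout of the pathway, had 4.59 in A and 5.80 in B at 96 h (limma adjusted p = 0.0103). Of the genes whose promoters are printed above, Dkk1, a secreted Wnt antagonist, had -0.09 in A and 3.09 in B at 96 h, from 32 and 224 reads, and missed the threshold (limma adjusted p = 0.0526). Sp5 had 3.40 in A and 5.43 in B at that time (limma adjusted p = 0.477). With voom weights the list had 10 of 14 past the contrast, Dkk1 and Sp5 among them, and against the 90 h pair alone it had 3, of which 2 were at 96 h only.

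Nodal pathway genes had 6 of 15 past the contrast and 3 at 96 h only, all higher in B, with a median difference of 0.12, 0.83 and 0.02. The ligand gene Nodal had 6.43, 6.46 and 6.30 in A and 6.66, 7.53 and 6.51 in B (contrast 0.85 ± 0.21, limma adjusted p = 0.00788). Its targets and antagonists Lefty1 and Lefty2 had 5.91 and 5.85 in A and 7.37 and 7.35 in B at 96 h, with adjusted p of 0.00511 and 2.52e-05 by limma. The ligand Gdf3 and the co-receptor gene Tdgf1 passed with differences of 0.99 and 0.88, and lost the call against the 90 h pair alone (adjusted p = 0.0589 and 0.0642), where 3 of the 15 passed. The receptor genes Acvr1b, Acvr2a and Acvr2b and the mediators Smad2 and Smad3 did not pass.

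BMP ligands and targets had 3 of 13 past the contrast, and 1 against the 90 h pair alone. Bmp4, the ligand that induces mesoderm, had 2.90, 3.47 and 3.49 in A and 3.70, 5.08 and 3.63 in B (contrast 1.14 ± 0.18, limma adjusted p = 0.000152). Its target Msx2 had 2.48 in A and 4.45 in B at 96 h (limma adjusted p = 0.0424), which was 0.357 against the 90 h pair alone. Of the FGF feedback genes, 5 of 18 passed in the direction of B and 1 in that of A, with 2 and 1 against the 90 h pair alone. Etv4, an ETS factor that follows FGF signalling, had 2.60, 1.65 and 2.42 in A and 2.68, 4.09 and 1.90 in B (limma adjusted p = 2.62e-08). Spry4, a feedback inhibitor of the same pathway, had 3.60 in A and 4.70 in B at 96 h (limma adjusted p = 0.00672).

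Mesoderm and endoderm regulators were high in B at 96 h in size but mostly not past the test. In the lateral, cardiac and blood mesoderm list, 9 of 17 were at least 2-fold higher and 1, Msx2, passed the contrast. Kdr, the VEGF receptor of vascular progenitors, had -0.28, 0.46 and 0.87 in A and 0.17, 2.97 and 0.74 in B (limma adjusted p = 0.135). Foxf1, a forkhead gene of lateral mesoderm, had -0.56 in A and 2.14 in B at 96 h (limma adjusted p = 0.394), and Snai1, which represses E-cadherin, 1.90 and 4.11 (limma adjusted p = 0.0629). With voom weights 9 of the 17 passed, and against the 90 h pair alone 0. None of the 8 presomitic genes passed, with 3 under voom weights, and Cdx2 at 1.37 in A and 3.79 in B came closest (limma adjusted p = 0.0577).

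The endoderm list had 6 of 12 genes at least 2-fold higher in B and 1 past the contrast. That gene was Trh, which encodes thyrotropin-releasing hormone, with 6.16, 6.28 and 6.47 in A and 6.60, 8.27 and 6.63 in B (contrast 1.69 ± 0.20, limma adjusted p = 7.33e-06). Foxa2, the forkhead factor of definitive endoderm and axial mesoderm, had -0.57, -0.09 and -0.60 in A and -0.01, 2.41 and -0.67 in B (limma adjusted p = 0.147). The chemokine receptor gene Cxcr4 had 0.57 in A and 2.65 in B at 96 h (limma adjusted p = 0.168). With voom weights 7 of 12 passed. Extraembryonic endoderm genes had 0 of 13 past the contrast and a median difference of -0.10 at 96 h, and Foxa2 and Kdr were at their highest of the course in B at 96 h.

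**Figure D5:**
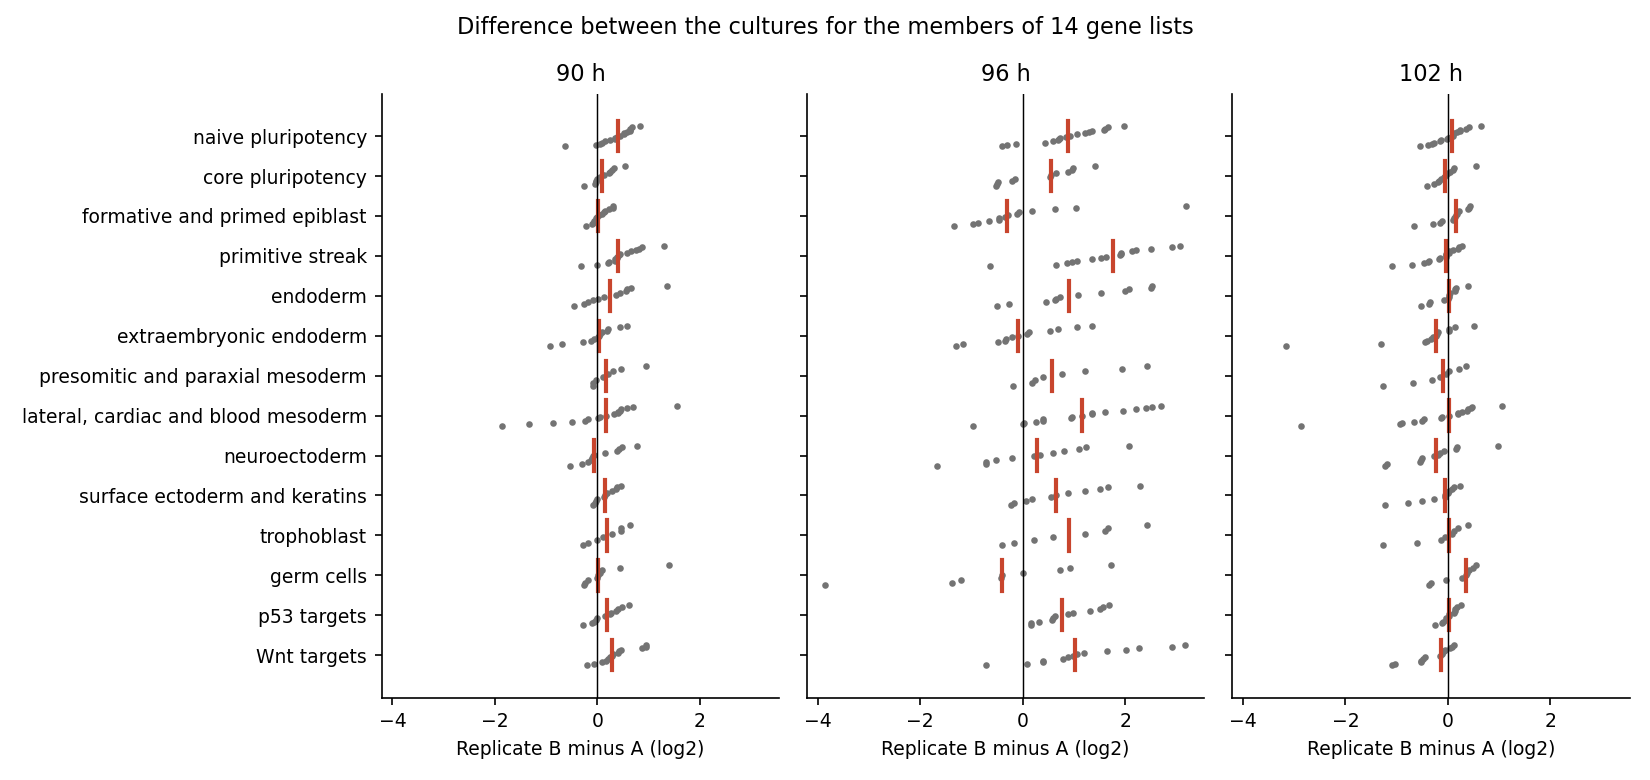
Each grey point is a gene and gives its B minus A difference on the log2 scale (x axis) at 90, 96 and 102 h, sorted by list (y axis), and red bars mark the list medians. The points of the primitive streak list centre on 0.41, 1.76 and -0.04, and those of most other lists lie near 0 at 90 and 102 h.

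Genes of the pluripotent state were also higher in B. Of 18 naive pluripotency genes, 8 passed the contrast, all in the direction of B, and 7 differed at 96 h only, with a list median of 0.41, 0.89 and 0.08. Against the 90 h pair alone, 4 passed. Dppa2, a chromatin factor of pluripotent cells, had 3.96, 4.0 and 4.56 in A and 4.59, 5.98 and 4.43 in B (contrast 1.73 ± 0.13, limma adjusted p = 1.44e-08). The Krüppel-like factor genes Klf2 and Klf5 had 4.72 and 5.36 in A and 6.34 and 6.66 in B at 96 h, with adjusted p of 0.00686 and 0.0131 by limma, and Klf2 lost the call against the 90 h pair alone (adjusted p = 0.0913). Tbx3 had 4.68 and 6.27, Esrrb 5.96 and 7.18, Nr0b1 3.32 and 4.68 and Tdh, a threonine-degrading enzyme gene of stem cells, 6.03 and 7.70. For none of the 18 was B at 96 h the highest library of the course, and the summed level, 1152 CPM in A and 1725 CPM in B, lay inside the 834 to 5936 CPM of the other libraries.

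Of the core pluripotency genes, 5 of 12 passed in the direction of B and 1, Lin28a, in that of A, and against the 90 h pair alone 2 and 0. Pou5f1, the Oct4 gene, had 9.13, 8.73 and 8.68 in A and 9.12, 9.68 and 8.55 in B (contrast 1.03 ± 0.18, limma adjusted p = 0.000414). L1td1, an RNA-binding protein gene of stem cells, had 7.40 in A and 8.81 in B at 96 h and was the gene of this list that differed at 96 h only. Nanog, with 8.37 and 8.91, missed the threshold (limma adjusted p = 0.0555), and Sox2, which neural cells share, had 7.89 and 7.75.

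Formative epiblast genes were lower in B where they passed, with 1 exception. The list median was 0.01, -0.31 and 0.16, with 4 of 14 past the contrast lower in B and 1 higher. Otx2, the homeobox factor of the anterior epiblast, had 6.98, 6.93 and 6.64 in A and 6.92, 6.06 and 7.05 in B (contrast -1.05 ± 0.17, limma adjusted p = 0.000162). Pou3f1, a POU factor of the epiblast and early neural cells, had 5.97 in A and 4.99 in B at 96 h (limma adjusted p = 0.000898). The zinc finger gene Sall2 had 6.75 and 5.41, with an adjusted p of 1.73e-05 by limma, and differed at 96 h only. The exception was Nkx1-2, a homeobox gene of the caudal epiblast, with -0.70, -0.14 and 0.59 in A and -0.57, 3.06 and -0.07 in B (limma adjusted p = 0.00668, and 0.0692 against the 90 h pair alone).

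Sox1, the first specific factor of the neural plate, was lower in B. It had 3.12, 3.62 and 4.92 in A and 3.03, 1.96 and 4.77 in B (contrast -1.55 ± 0.26, limma adjusted p = 0.000275). Its value at 102 h was above that at 90 h in both cultures, and B at 96 h lay below its own values on either side. The 12 neuroectoderm genes as a list had a median difference of 0.28 at 96 h, with 2 higher and 1 lower past the contrast, and 1 and 1 against the 90 h pair alone. The higher ones were Tubb3, the neuronal tubulin gene, at 1.96 in A and 3.20 in B, and Cdh2, the N-cadherin gene, at 2.63 and 4.71, which mesoderm shares. Pax6 had -0.76 and -1.48 and did not pass (limma adjusted p = 0.991).

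Among the genes of the epithelial-mesenchymal transition, Cdh2 and Vim passed, 2 of 15, where 8.72% of all genes passed in the direction of B. The list had a median B minus A of 0.24 at 96 h, so these 2 calls describe single genes. Vim, the vimentin gene of mesenchymal cells, had 6.55, 6.58 and 6.71 in A and 6.76, 8.34 and 6.55 in B (contrast 1.73 ± 0.13, limma adjusted p = 1.74e-08), and B at 96 h was the highest library of the course. Of the surface ectoderm genes 5 of 11 passed in the direction of B, and 2 against the 90 h pair alone. Grhl3, a grainyhead factor of epidermis, had 3.38 in A and 5.05 in B at 96 h (limma adjusted p = 6.49e-05). The ligand gene Wnt6 had 2.36 and 4.65 (limma adjusted p = 0.0211), and this call was lost against the 90 h pair alone (adjusted p = 0.253). In the trophoblast list 2 of 8 passed (1 against the 90 h pair alone), Tfap2c and Ascl2, the latter at 1.75 in A and 3.42 in B.

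Germ cell genes were lower in B where they passed, 3 of 9. The summed level of the list was nearly equal at 96 h, 101 CPM in A and 99.9 CPM in B. In 2 of the 9, B at 96 h was the highest library of the course. With voom weights 2 passed higher and 4 lower. Sycp3, a component of the meiotic chromosome axis, had 4.98, 4.77 and 4.63 in A and 4.80, 3.39 and 4.91 in B (limma adjusted p = 0.00943). Dazl, an RNA-binding protein gene of germ cells, had 1.75 in A and 0.54 in B at 96 h (limma adjusted p = 0.0029). Both lost the call against the 90 h pair alone, with adjusted p of 0.106 and 0.109. Stra8, which starts meiosis in response to retinoic acid, had 10, 28 and 35 reads in A and 31, 1 and 29 in B (limma adjusted p = 0.00172), and no fold is given from 1 read.

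Target genes of p53, the factor that halts the cycle after damage, were higher in B. Of 12, 7 passed the contrast and 4 differed at 96 h only, with a list median of 0.20, 0.76 and 0.03. Cdkn1a, the p21 inhibitor gene of the cell cycle, had 5.48, 5.93 and 6.33 in A and 5.97, 7.62 and 6.59 in B (contrast 1.32 ± 0.20, limma adjusted p = 0.000113). Plk2, Sesn2 and Phlda3 had 5.23, 6.08 and 4.92 in A and 6.74, 7.65 and 6.22 in B at 96 h. Mdm2, whose protein degrades p53, had 7.43 and 8.41 and passed with a difference under 2-fold. Of 16 cell cycle genes 2 passed higher and 1 lower, none by 2-fold.

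In the other stress and state lists the calls are read against the 8.72% of all genes called in the direction of B and the 8.09% in that of A. Heat shock genes had 2 of 11 past the contrast and none at 96 h only, with the inducible Hspa1a at 1.66 in A and 1.29 in B, and ATF4 targets had 1 higher and 1 lower of 12. In the cholesterol list 2 of 12 passed. Of 15 immediate early genes 3 passed higher and 1 lower, Atf3 at 2.70 in A and 4.09 in B and Fos at 3.75 and 2.58 among them. In the glycolysis list Vegfa, the vascular growth factor gene, was at 6.22 in A and 5.15 in B at 96 h, and here A departed from its own neighbours, which were 5.40 and 5.22. Ribosomal protein genes had 2 of 86 past the contrast. Against the 90 h pair alone the heat shock list had 1, the immediate early list 2 and the ATF4, cholesterol, cell cycle and ribosomal lists 0. Of the replication histone genes, Hist3h2ba alone of 4 passed.

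Fibroblast genes, included because such stem cells are often kept on feeder cells, were lower in B where they passed, 3 of 11. Summed over the list the level was 103 CPM in A and 69.3 CPM in B at 96 h, inside the 25.2 to 167 CPM of the other libraries. Thy1 had 2.98 and 1.42 and Col1a1, a collagen gene, 3.74 and 2.42.

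By size, the largest differences among the 381 higher genes expressed at 2 log2 CPM or more in either library were those of Six2, Nkx1-2, Mixl1, Nkx6-3 and Enox1. Six2, a homeobox gene of kidney and head mesenchyme progenitors, had 1.04, 1.22 and 2.02 in A and 1.37, 4.88 and 2.30 in B, with a contrast of 3.35 ± 0.996 (limma adjusted p = 0.0224) that was lost against the 90 h pair alone (adjusted p = 0.0961). Enox1 had 2.01, 1.87 and 2.12 in A and 2.33, 4.75 and 1.52 in B (limma adjusted p = 1.87e-09), still below its 7.30 in B at 30 h. Next came Nkx2-9, Il17d, Inka2, Zfp428, Nefh and 1700007K13Rik, with differences of 2.57 to 2.81, and Lgals3, the galectin-3 gene, at 2.70 in A and 5.23 in B. The leukotriene receptor genes Ltb4r1 and Ltb4r2 differed by 2.75 and 2.62, and as neighbours on chromosome 14 their reads may be shared.

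Among the largest differences of the lower genes were those of Spon1, Zc3h6, H19 and Olfml2a. H19, the imprinted noncoding RNA that is abundant in embryonic endoderm and mesoderm, had 3.43, 4.06 and 5.28 in A and 3.41, 1.22 and 5.66 in B (contrast -3.02 ± 0.46, limma adjusted p = 0.000113). Its highest value was 7.35 in A at 114 h, and B at 96 h lay below both of its neighbours. Spon1, which encodes the matrix protein F-spondin, had 2.32, 2.07 and 1.89 in A and 2.37, -1.20 and 2.10 in B (limma adjusted p = 0.0154, and 0.0802 against the 90 h pair alone).

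Lrp2, the megalin gene of absorptive epithelia, was the most abundant of these, with 8.43, 8.50 and 9.28 in A and 8.02, 6.18 and 8.82 in B (contrast -1.89 ± 0.28, limma adjusted p = 6.84e-05). Ptch1, the receptor and target of hedgehog signals, had 5.21, 4.84 and 5.06 in A and 4.86, 2.62 and 4.10 in B (contrast -1.56 ± 0.47, limma adjusted p = 0.024). Ntrk2, the BDNF receptor gene, had 2.34 in A and 0.16 in B at 96 h (limma adjusted p = 0.000229). Aass, Vsir, Spag16, Mpp3, Oprk1, Catsperg1 and 2610528J11Rik were also among these genes, with differences from -2.58 to -2.25. In all of these the cultures lay closer at 90 h and at 102 h than at 96 h, which the rule that chose them largely fixed.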

How the data were processed

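Total RNA was extracted with Trizol, and stranded poly-A libraries were made from it. After trimming (Trim Galore) and TopHat2 alignment to the mm10 build, the authors counted reads per GENCODE vM2 gene with HTSeq and normalized the counts with edgeR (versions are not given in the sources used here). The deposited values are log2 CPM with the 0.5-read offset of voom, 1 column per library. Low values therefore depend on that offset. Whole reads could be recovered from them, between 10120972 and 51652434 per library, and served for depths and voom weights only, and 3 reads corresponded to 0.0794 to 0.164 CPM in the 6 libraries. A gene under that level was not reliably detectable, and such counts cover counting error only.

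Libraries were grouped by the replicate and time in their labels. With limma 3.58.1 in R 4.3.3 (lmFit, eBayes with trend), B minus A was fitted over the 6 libraries with time as a factor, 2 residual degrees of freedom. The 96 h contrast was fitted to 21 paired differences, with 17 residual degrees of freedom. The p-values were two-sided and adjusted by Benjamini-Hochberg over all 14296 genes, and with 1 library per culture and time they measure the spread between pairs of times. The window pairs libraries by time, and no other pairing exists.

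Genes were matched to GENCODE vM21 on GRCm38 by identifier, 14177 of 14296, which gave the gene coordinates, lengths and GC content. Named genes were T, Mixl1, Eomes and Evx1, the 15 largest differences of each direction among genes at 96 h only with 2 log2 CPM in the higher library, and up to 4 of each of 28 lists, with further members given as values. A rule for window genes named none, as none passed, and some genes the rules name are not reported here. The time, lists and rules were chosen with earlier results of these data known. The 2 fits were checked on simulated counts. Alternatives were the neighbours used, the source of the spread, voom weights, a filter on low values, 2 scalings, no trend, and other thresholds. Python 3.11.15 drew the figures.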

Additional observations from a re-analysis of the deposited data

Results flagged for a closer look

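The difference between the cultures at 96 h departed from that at 90 and 102 h for 2403 of 14296 genes by limma at an adjusted p of 0.05, 1246 in the direction of replicate B and 1157 in that of replicate A. This count was singled out because the difference of the differences was itself tested. Against the 90 h pair alone it was 353 and 390 genes, and against the 102 h pair alone 1543 and 1274. Groups of 21 libraries were not screened for single outlying values.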

How the results depend on the processing

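The window test called 0 genes in both directions with voom weights, a filter at a mean of 1 log2 CPM, median centring, quantile normalization, no trend and the threshold of 0.0001. Without pairing by time it called 0 higher and 1 lower, with the spread of all 42 libraries 1563 and 1074, and over 84 to 108 h 3 and 59. Over the pairs of 72 to 102 h, chosen after the data were seen, it called 385 and 669, and without 96 h among them 458 and 758. Leaving out 1 pair of the window gave 9 to 251 higher and 33 to 263 lower genes.

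The 96 h contrast called 1246 and 1157 genes. These became 353 and 390 with the 90 h pair as the only neighbour, 2268 and 1787 against the 18 pairs outside the window, and 71 and 43 at a threshold of 0.0001. The genes at 96 h only, 381 and 442, became 189 and 213 with 90 h alone, of which 188 and 213 were among the 381 and 442, 61 and 38 at 0.0001, 948 and 900 at a fold limit of 0.58 (log2), and 160 and 158 at 1.5. The other alternatives stayed within 1.5 times of each count, and 0 of the 823 genes changed direction under any alternative. Only median centring, quantile normalization and removal of the GC and length trend alter the B minus A values at 96 h. Under the rest no change of direction was possible, so the 0 says nothing there. Of the 135 named genes, 31 lost their call with 90 h alone and 22 gained one with voom weights. The causes were not tested. At 96 h, depth limits genes under 3 reads, and 1 library per culture sets no error of its own.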

Other observations

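Some gene families were looked at after their values had been seen, with every measured member counted and no test of the family. Over all genes, 2.67% were higher and 3.09% lower in B at 96 h only, and 8.72% and 8.09% passed the contrast. Of 13 Wnt ligand genes, 12 were above 0 in B minus A at 96 h. By the rule, 5 differed at 96 h only with B higher, Wnt3, Wnt4, Wnt5a, Wnt6 and Wnt11. Wnt3 and Wnt6 are also members of the lists above. The rule limits the neighbours in the same direction alone, and at 102 h Wnt6 and Wnt11 stood at -1.22 and -1.26. These reversed values at 102 h also enter the contrasts of Wnt6 and Wnt11. The median difference of the 13 ligand genes was 0.21, 1.56 and -0.37 at 90, 96 and 102 h. Wnt5a, a ligand of the tail bud, had -0.44, 0.98 and 1.23 log2 CPM in A and -0.05, 3.27 and 0.59 in B, and Wnt4 3.71, 4.24 and 4.49 in A and 3.92, 5.80 and 4.69 in B. Both neuropilin genes, Nrp1 and Nrp2, which encode receptors for semaphorins and VEGF, met the rule for 96 h only with B higher. Nrp2 was at 3.76 in A and 5.81 in B at 96 h, and Nrp1 had a reversed B minus A of -1.10 at 102 h.

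Of 4 intermediate filament genes of neurons, Nefh, Nefl and Ina were higher in B at 96 h only and Nefm was not called. Nefl had 6.08, 5.29 and 5.44 in A and 6.14, 7.29 and 4.87 in B (limma adjusted p = 6.41e-10), while Sox1 was lower in the same library. Of 20 H2 genes, which encode MHC proteins or are their pseudogenes, 7 passed the contrast lower in B and 1, H2-M5, higher. H2-T22 had 4.11, 4.25 and 4.62 in A and 4.22, 2.92 and 4.78 in B. Several of these genes are near-identical copies, so reads may be split between them. Of 8 Oas genes, a family that senses double-stranded RNA, 3 passed lower in B, among them Oas1b, which is annotated as a polymorphic pseudogene. The family had a median difference of -0.40 at 96 h with 4 members above 0. Oas3 had 1.66, 1.82 and 0.71 in A and 1.26, -1.64 and 1.72 in B (limma adjusted p = 2.94e-05). Oas1a, at 1.74 in A and 2.10 in B at 96 h, did not pass. Of 19 Eph receptor and ephrin genes, 3 were higher in B at 96 h only, Epha2, Efna3 and Efnb1, while the family had a median difference of -0.17 at 96 h with 7 members above 0.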
